A study of Mus musculus with 16 samples.

Results

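The authors' deposited table of m6A peaks holds 449 peaks in 203 mouse genes whose symbol starts with Zfp and a number, out of 13083 peaks in 6847 genes. N6-methyladenosine (m6A) is an adenosine within an RNA that carries an added methyl group, and a peak is a stretch of exon where RNA pulled down with an antibody to m6A (IP) exceeded the RNA before the pull-down (input). Members were chosen by symbol alone, a rule that uses no measured value, although earlier results of these data were known at that time. The tissue was bone of wild type mice after ovariectomy, the removal of the ovaries, with 4 input and 4 IP libraries, or after a sham operation, with 4 and 4. Libraries titled OVX were taken as ovariectomy and those titled NC as sham, although the treatment field of the NC IP libraries also reads ovariectomy. Both tables hold the authors' values over all libraries and none for a single one, so no value per library and no depth per library can be given.

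Most proteins named Zfp carry C2H2 zinc fingers, loops in which cysteines and histidines hold a zinc ion and which read DNA bases in a row. Many also carry a KRAB domain, which recruits the corepressor Trim28 and through it histone methylation, and these proteins are known for silencing retrotransposons and imprinted loci. Their genes lie in tandem clusters, and the whole finger array of a KRAB gene is usually encoded by a single long last exon. A few genes share the name without that fold, among them the Zfp36 family of CCCH proteins, which bind AU-rich messenger RNA and direct its decay. The mark m6A is placed by the Mettl3 and Mettl14 complex, often in long exons and near stop codons, and its readers promote, among other effects, decay of the RNA.

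Of the member genes, 201 are listed as protein coding in RefSeq, and 94 of these (46.8%) lie directly beside another protein-coding Zfp gene. The same holds for 463 of 21503 protein-coding genes of other names (2.15%). Chromosome 7 carries 82 member peaks (18.3%) in 42 genes, and 742 other peaks (5.87%). Chromosome 17 carries 53 member peaks (11.8%) in 27 genes, and 550 other peaks (4.35%). By contrast chromosome 1 carries 8 member peaks (1.78%) and 901 other peaks (7.13%).

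No genome of the files' build was used here, so sequence is shown only where a member peak runs into a promoter window, the 250 bases before to 50 bases after a RefSeq start. Of the 203 genes, 162 matched such a window by symbol. Windows on a chromosome that carries 29 Zfp peaks in 9 genes were left out, so any overlap there is not given. Among the remaining windows, peaks of Zfp384 and Zfp143 covered at least 10 bases of one. Zfp384, also known as Nmp4, is a nuclear matrix transcription factor whose loss raises bone formation in mice. Its peak is among those with a deposited p under 0.05 for the difference between the arms. No Zfp peak reached a false discovery rate under 0.05 for that difference. Zfp143 binds promoters and takes part in chromatin looping. The windows are printed 5′ to 3′ from RefSeq on GRCm38.p6, at chr6:125010131-125010430 and chr7:110061461-110061760, both on the plus strand, with the bases inside the peak in capitals.
Zfp384: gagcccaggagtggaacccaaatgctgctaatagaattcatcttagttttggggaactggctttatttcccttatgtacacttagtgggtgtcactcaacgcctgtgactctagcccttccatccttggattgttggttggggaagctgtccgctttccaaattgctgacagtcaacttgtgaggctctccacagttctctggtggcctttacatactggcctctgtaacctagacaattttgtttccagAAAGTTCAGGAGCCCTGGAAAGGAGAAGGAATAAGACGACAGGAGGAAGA
Zfp143: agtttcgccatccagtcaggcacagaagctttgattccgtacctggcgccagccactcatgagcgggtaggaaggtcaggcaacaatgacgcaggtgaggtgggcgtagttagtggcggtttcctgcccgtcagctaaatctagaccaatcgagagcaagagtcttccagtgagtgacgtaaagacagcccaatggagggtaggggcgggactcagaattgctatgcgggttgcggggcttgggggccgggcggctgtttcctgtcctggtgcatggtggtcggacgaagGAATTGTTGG
The Zfp384 peak covers all 50 bases after the RefSeq start of its window, in the second of its 3 blocks. Its first block, at chr6:125009741-125009901, lies upstream of the whole window, so the peak begins before that start. The Zfp143 peak covers the last 10 bases of its window. The letters GGAC, a common core of m6A sites, were searched for on both strands. They occur 0 times on the gene strand of the Zfp384 window and 2 times on that of Zfp143, with 1 occurrence on the other strand of each window and none within the capitals. Of all 32851 promoter windows, 65.6% hold GGAC on the gene strand and 66.1% on the other strand.

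Zfp peaks were mostly single stretches of exon. A peak is deposited as 1 or more blocks, each within an exon, and 389 of 449 Zfp peaks had 1 block (86.6%, exact 95% binomial interval 83.1 to 89.6), against 7442 of 12634 other peaks (58.9%, 58.0 to 59.8). The intervals here cover counting error only, and peaks of a gene share its RNA and are not independent. Only 15 Zfp peaks (3.34%) crossed 3 or more blocks, against 2291 other peaks (18.1%). Among them was the 5-block peak of Zfp91, a ubiquitin ligase of the NF-kB pathway, with an enrichment of 2.40 over 348 bases. All of those bases are also listed as a peak of Gm44505 on the same strand, so its reads cannot be assigned to either gene. Zfp617 had the only 4-block peak (enrichment 1.99), and 13 peaks had 3 blocks.

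The summed length of the blocks did not set Zfp peaks apart. It had a median of 150 bases in Zfp peaks (quartiles 101 and 201) and of 151 in other peaks (101 and 249). Among peaks of 1 block the medians were 150 in both groups. Counted from first to last base on the genome, introns included, the medians were 150 bases for Zfp peaks and 250 for the others. The 4 longest Zfp peaks by summed blocks were in Zfp260 with 992 bases in 1 block, Zfp638 with 847 in 3, Zfp830 with 746 in 1 and Zfp318 with 699 in 1. Zfp638 is a nuclear protein that binds nucleic acids, and its human form silences unintegrated retroviral DNA. Lengths came in steps, with 429 of 449 Zfp peaks (95.5%) and 11599 other peaks (91.8%) within 2 bases of a multiple of 50.

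**Figure D1:**
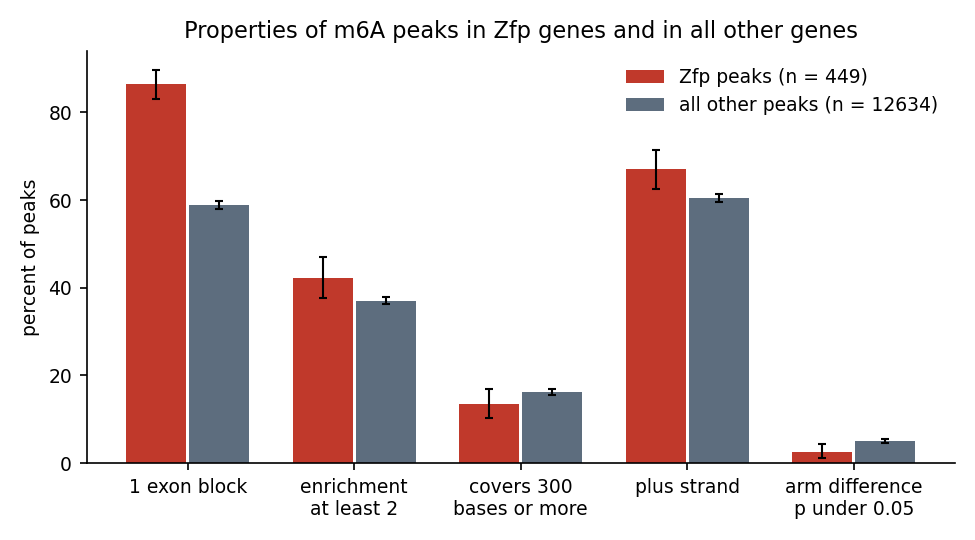
Percent of peaks with each property, for 449 Zfp peaks (red) and 12634 other peaks (grey), with exact 95% binomial intervals as bars. The 1-block share stands at 86.6% for Zfp peaks and 58.9% for the others, while the share with a difference between the arms is 2.45% and 5.01%.

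Several peaks per gene, close together, were common in the family. Of the 203 genes, 123 had 2 or more peaks (60.6%, 53.5 to 67.4), against 3038 of 6644 other genes with a peak (45.7%, 44.5 to 46.9). Peaks per gene averaged 2.21 in Zfp genes and 1.90 in the others. In 80 of those 123 genes (65.0%) all peaks lay within 5 kb of genome, against 980 of 3038 other genes (32.3%). The distance from the first to the last peak had a median of 2249 bases in these Zfp genes and 12240 bases in the others. In 85 of the 123 genes (69.1%) every peak had 1 block, against 1035 other genes (34.1%).

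Zfp62 and Zfp646 had the most peaks, 8 each, followed by Zfp318 and Zfp608 with 7, and by Zfp605, Zfp609, Zfp638, Zfp644 and Zfp971 with 6. The 8 peaks of Zfp62 lay within 5574 bases of chromosome 11, 7 of them of 1 block, and their enrichments were 2.24, 3.52, 1.42, 1.75, 2.05, 2.26, 1.94 and 3.04 in 5′ to 3′ order. The second and the last were thus the highest, with lower ones between them. All 8 peaks of Zfp646 had 1 block and lay within 4621 bases of chromosome 7, with enrichments of 1.13 to 2.64. Zfp605 packed 6 peaks into 1777 bases of chromosome 5, at 1.48 to 2.38. Zfp971 had 6 within 2523 bases of chromosome 2, where the last, at chr2:178035265-178035661, stood at 3.12 and the others at 1.32 to 1.75. A wider layout was seen in Zfp608 and Zfp609. The peaks of Zfp608, which represses the Rag recombinase genes in thymocytes, spread over 92362 bases, and those of Zfp609, a partner of the cohesin loader in neurons, over 94466.

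**Figure D2:**
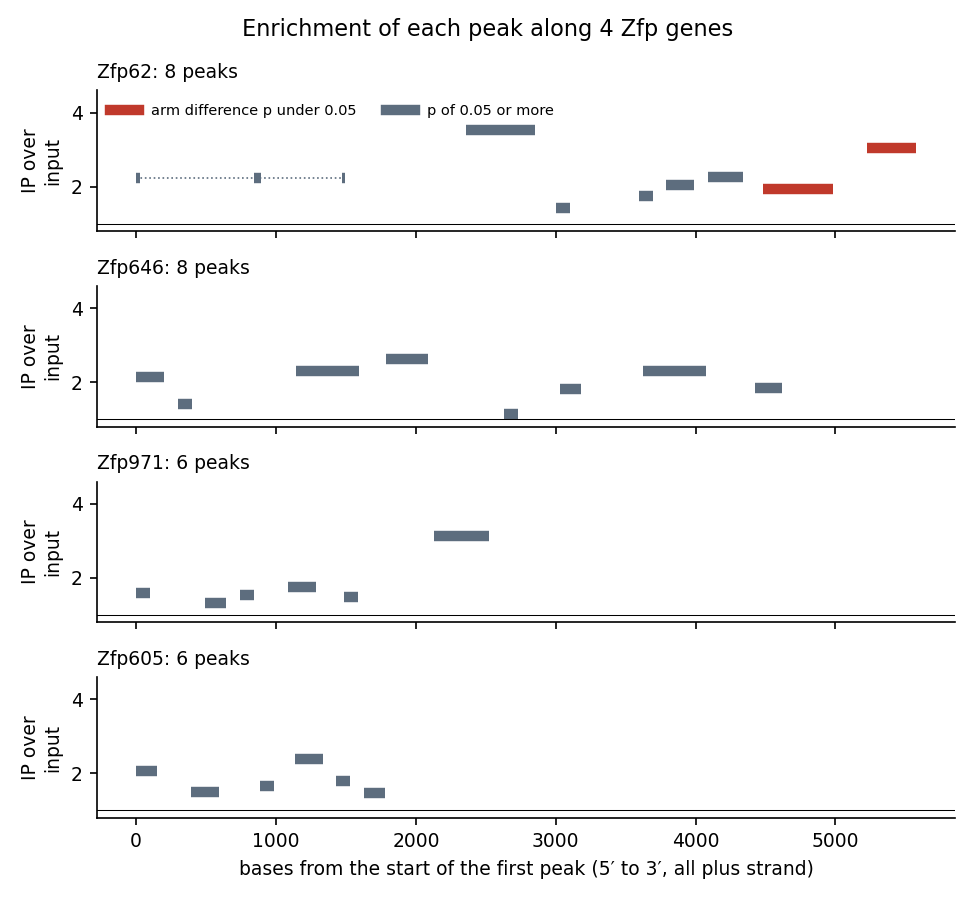
Position and fold enrichment of IP over input of every peak in 4 of the genes with the most peaks, chosen after their values were seen for a layout within 6 kb, with bases counted from the first peak. Thick bars are exon blocks, dotted lines join blocks of 1 peak, the thin line marks an enrichment of 1, and the 2 peaks of Zfp62 with an arm difference at p under 0.05 are red.

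Within genes of 3 or more peaks, the highest enrichment was at the 5′ peak in 18 of 67 Zfp genes (26.9%), at a middle peak in 30 (44.8%) and at the 3′ peak in 19 (28.4%). In the other 1397 such genes the shares were 27.3%, 45.9% and 26.8%. Each Zfp share differed from the other share by less than its own exact interval.

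The enrichment of Zfp peaks had a median of 1.84 (quartiles 1.55 and 2.31), against 1.82 (1.54 and 2.2) for the others. These fold values, like all peak values here, are the authors'. An enrichment of at least 2 was reached by 190 Zfp peaks (42.3%, 37.7 to 47.0) and by 4693 other peaks (37.1%, 36.3 to 38), with 37.3% among all peaks. At 3 or more there were 29 Zfp peaks (6.46%, 4.37 to 9.14) in 21 genes, against 495 other peaks (3.92%, 3.59 to 4.27). With 1 median value per gene the share at 2 or more was 36% in Zfp genes and 33.9% in the others, a smaller gap than over peaks.

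The highest Zfp enrichment was 4.19, over 746 bases of Zfp830 (chr11:82764742-82765487), a protein needed for pre-mRNA splicing and genome stability in the early embryo. Zfp809, which with Trim28 silences murine leukaemia viruses, followed with peaks of 3.93 and 3.18, at chr9:22239034-22239573 and chr9:22237690-22238839. Both of its peaks were thus high. Zfp292, a large protein with many fingers, had 3 peaks at 3.08, 3.89 and 3.48, in the order of the genome. Zfp808 had peaks of 3.82 and 3. These 3 genes were the ones with 2 or more peaks of which all reached 3. Zfp318, which lets B cells make IgD by blocking early transcript ends, had enrichments of 1.97 to 3.66 over its 7 peaks. Next in order were Zfp180 at 3.56, Zfp518a at 3.54 and the second peak of Zfp62 at 3.52. Zfp445, which with Zfp57 keeps imprints, had peaks of 2.85, 1.66 and 3.49 and was chosen after its values were seen.

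The lowest enrichments were 1.07 in Zfp438, 1.10 in Zfp703, 1.11 in Zfp763 and 1.12 in Zfp622. Zfp703 is a corepressor, and Zfp622 acts in the maturation of the large ribosomal subunit. The lowest p against input of all Zfp peaks, 2e-26, is listed for both peaks of Zfp622, at enrichments of 1.66 and 1.12. In 20 Zfp genes every peak stayed under 1.5. Of the Zfp36 family only Zfp36l2 had a peak, with an enrichment of 2.10 over 250 bases (chr17:84185271-84185520).

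Wider peaks were the more enriched ones, as elsewhere in the table. Spearman's rho between enrichment and summed block length was 0.51 over 449 Zfp peaks and 0.49 over 12634 other peaks, a description across peaks that share libraries and, in part, genes. Against the mean count of the gene, rho was 0.17 in Zfp peaks and 0.02 in the others.

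Evidence per peak was weaker over all Zfp peaks together. The log10 p against input had a median of -8.00 (quartiles -10.6 and -5.93) in Zfp peaks and of -10.4 (-13.5 and -7.66) in the others. Read depth moved with it. The mean normalized count of the gene, a measure of reads and not of level per length, had a median of 1083 over Zfp peaks and 2776 over other peaks. Its part in the weaker p was not tested. All peaks were then divided into 4 equal classes by that count, and the 1-block share was higher in Zfp peaks in each. It was 91.1% in Zfp peaks and 74.6% in others in the lowest class, and 80.0% and 45.1% in the highest, where there were 20 Zfp peaks in 5 genes. The median enrichment was 1.8 in Zfp peaks and 1.79 in others in the lowest class and 1.81 and 1.83 in the next. In the third class it was 2.14 over 69 Zfp peaks in 20 genes and 1.82 over others, and in the highest 2.13 and 1.83. The median log10 p against input, from the lowest class to the highest, was -6.49, -8.8, -11 and -13.1 in Zfp peaks. It was -8.4, -9.88, -11.3 and -12.6 in others, so the Zfp value was the weaker one except in the highest class.

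Zfp genes carried peaks more often than other genes with as many reads. Of 364 Zfp genes tested for RNA, 202 had a peak (55.5%, 50.2 to 60.7), against 6622 of 15032 other genes (44.1%, 43.3 to 44.9). Among genes with mean counts of 204 to 853 the shares were 66.2% of 142 Zfp genes (57.8 to 73.9) and 36.4% of 3707 others (34.8 to 37.9). At 853 to 2566 they were 81.4% of 70 Zfp genes and 57.7% of 3779 others. Above that, 26 of 27 Zfp genes (96.3%) and 71.3% of 3822 others had a peak. Gene and exon lengths were not compared, and these shares join both strands, which differ as given below.

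**Figure D3:**
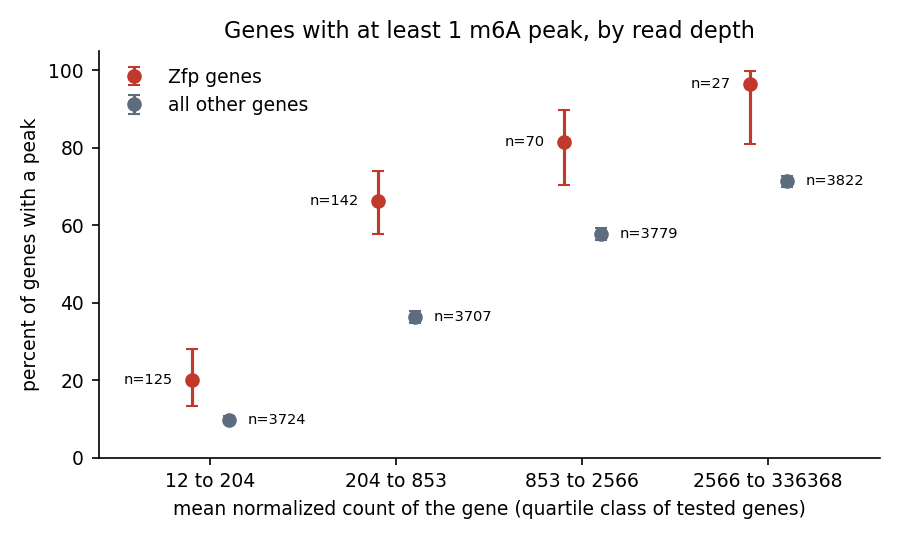
Percent of tested genes with at least 1 m6A peak in 4 classes of the mean normalized count, for Zfp genes (red) and all other genes (grey), with exact 95% binomial intervals and the number of genes. The Zfp share lies above the other share in every class, from 20.0% and 9.83% in the lowest to 96.3% and 71.3% in the highest.

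Strand moved with the presence of a peak too. Where a RefSeq promoter gave the strand, 100 of 144 tested Zfp genes on the plus strand had a peak (69.4%, 61.2 to 76.8), and 62 of 157 on the minus strand (39.5%, 31.8 to 47.6). In other genes the shares were 52.1% on the plus and 37.8% on the minus strand. On the minus strand the share of other genes thus lay within the Zfp interval. The gap between the groups was mainly on the plus strand, in a split that did not match read depth. Of the Zfp peaks 67.0% lay on the plus strand, and of the others 60.4%.

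Members beside another Zfp gene had fewer reads and more 1-block peaks than the other members. The 187 peaks of the 94 genes with a Zfp neighbour had a median enrichment of 1.79 (quartiles 1.54 and 2.23) and 93.0% had 1 block. The 258 peaks of the 107 genes without one had a median of 1.92 (1.57 and 2.35) and 82.2% had 1 block. The median mean count was 638 over the peaks of genes with a neighbour and 1719 over the others. A few members shared bases with peaks listed for other genes. All 3 peaks listed for Zfp991 lay outside the RefSeq gene of that name, 2 of them on bases also listed for Znf41-ps, and the third on 149 bases also listed for Zfp992. In all, 9 Zfp peaks in 7 genes shared bases with a peak of another gene.

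The next comparison asked which Zfp peaks differed between ovariectomy and sham. The peak table does not say which arm is on top, so signs are as deposited. A difference p under 0.05 was listed for 11 Zfp peaks in the authors' deposited table (2.45%, 1.23 to 4.34), against 633 other peaks (5.01%, 4.64 to 5.41) and 4.92% of all peaks. The authors' deposited table gives a positive sign to 9 of these 11 and a negative one to 2, where 3.6% of all peaks were called positive and 1.32% negative. None of the 449 Zfp peaks reached a false discovery rate under 0.05 in the authors' deposited table, and 3 other peaks did.

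The 11 peaks lay in 9 genes. The smallest p in the authors' deposited table, 4.9e-04, was that of a Zfp397 peak of 400 bases (chr18:23961828-23962227), with a log2 difference of 0.50. Zfp638 followed in the authors' deposited table with 0.28 (p = 0.0038) at chr6:83976557-83976955, where its enrichment was highest, at 3.24. Zfp106, an RNA-binding protein that motor neurons and muscle need, had 2 called peaks in the authors' deposited table, with differences of 0.57 (p = 0.0047) and 0.25 (p = 0.030). Its other 3 peaks had 0.10, 0.19 and 0.09 in the authors' deposited table, so all 5 were positive. Zfp62 also had 2 called peaks in the authors' deposited table, at its 3′ end, with 0.40 (p = 0.033) and 0.42 (p = 0.019). The other 6 Zfp62 peaks ranged from -0.31 to 0.42 in the authors' deposited table, so a difference of the same size was called in one peak and missed in another.

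The Zfp384 peak shown above had 0.54 (p = 0.017) in the authors' deposited table. Zfp949 had 0.43 (p = 0.018) in one of 2 peaks in the authors' deposited table and 0.45 (p = 0.18) in the other. Zfp84 had 0.58 (p = 0.032) in one of 4 peaks in the authors' deposited table, while its other 3 lay between -0.03 and 0.004. On the negative side of the authors' deposited table stood Zfp386 with -0.73 (p = 0.032), whose second peak had 0.46 (p = 0.31). The other was Zfp318 with -0.03 (p = 0.028) in the authors' deposited table, a difference far smaller than that of most peaks that missed the threshold.

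Over all classes of read depth together, differences were larger in Zfp peaks but seldom called. The absolute log2 difference had a median of 0.19 in Zfp peaks and 0.14 in other peaks of the authors' deposited table, and 62 Zfp peaks (13.8%) reached 0.5, against 831 others (6.58%). At 1 or more there were 9 Zfp peaks (2.0%) and 80 others (0.633%) in the authors' deposited table. None of those 9 was called, their p was at least 0.15, and the mean count of their genes was at most 372. By class of the mean count, from lowest to highest, the called share in the authors' deposited table was 0.851%, 3.2%, 4.35% and 10% in Zfp peaks. These shares rest on 2, 4, 3 and 2 called peaks. The last 2, out of 20 peaks in 5 genes, were both peaks of Zfp106. In the other peaks the called share was 2.57%, 4.51%, 4.75% and 8.03%. The median absolute difference in the same classes of the authors' deposited table was 0.245, 0.159, 0.124 and 0.1065 in Zfp peaks. Other peaks had 0.2085, 0.149, 0.134 and 0.114. The Zfp median was thus higher in the lowest class and the next, and lower in the third and the highest. Of the 123 Zfp genes with several peaks, 42 had differences of a single sign in the authors' deposited table. As many as 56 of the 123 had only 2 peaks, and other genes were not counted in this way.

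**Figure D4:**
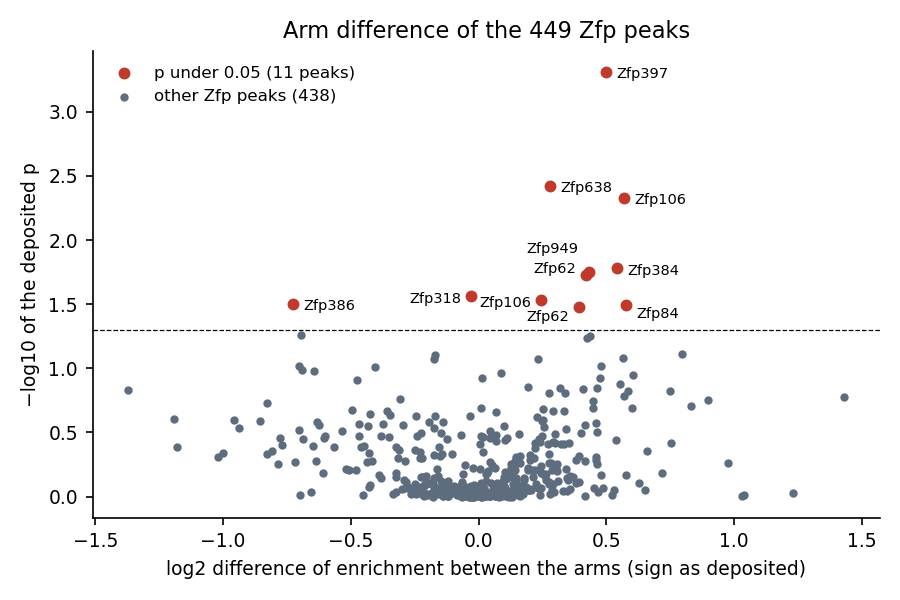
Each of 449 Zfp peaks by its log2 difference between the arms and −log10 of its p, both as the authors' deposited table gives them, with the 11 called peaks named in red. The widest differences, at 1 or more in size, lie below the dashed line that marks the threshold, and the called Zfp318 peak lies near 0.

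RNA of the same genes was compared between the arms in the second table, whose sign is likewise as deposited. The libraries behind it are not named and were taken to be the input ones, in which case it shares them with the m6A difference. In bulk tissue fewer cells of a type and less RNA per cell cannot be told apart. Of the 203 Zfp genes with a peak, 202 were tested, and the authors' deposited table lists 15 of them (7.43%) at an adjusted p under 0.05, with 9 positive signs and 6 negative. Called at this level were 12.2% of all 15396 tested genes, 6.07% positive and 6.11% negative, and 14.1% of the 6622 other genes with a peak. The median log2 fold change in the authors' deposited table was 0.04 for Zfp genes with a peak (median SE 0.15) and -0.02 for all tested genes (0.17). The median absolute change was 0.17 both for Zfp genes with a peak and for other genes with one in the authors' deposited table. Of the 162 tested Zfp genes without a peak 7 were called (4.32%), 5 positive and 2 negative, against 919 of 8410 other genes without one (10.9%). In 4 equal classes of all tested genes by mean count, from lowest to highest, 2.4%, 4.23%, 11.4% and 18.5% of tested Zfp genes were called. The shares in other genes were 6.9%, 11.5%, 14.9% and 15.9%.

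The largest positive value among called members was that of Zfp219, a partner of Sox9 in cartilage cells, at 1.35 ± 0.23 (SE) in the authors' deposited table (adjusted p = 1.9e-06). Its 1 peak had an enrichment of 1.48. Zfp592 stood at 0.30 ± 0.06 and Zfp646, the gene with 8 peaks, at 0.26 ± 0.06 in the authors' deposited table (adjusted p = 3.1e-04 and 9.4e-04). Zfp653 and Zfp41 had 0.40 ± 0.10 and 0.48 ± 0.16 in the authors' deposited table. Zfp53, Zfp553 and Zfp407 followed with 0.43, 0.33 and 0.29 in the authors' deposited table. Zfp282, named after its value was seen, completed the positive side with 0.21 in the authors' deposited table. Apart from Zfp219, the positive changes were thus below 0.5 on the log2 scale.

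On the negative side Zfp651 had -1.20 ± 0.37 and Zfp112 had -0.99 ± 0.22 in the authors' deposited table (adjusted p = 0.017 and 3.6e-04). Zfp462, which acts with heterochromatin regulators, had -0.72 ± 0.24 in the authors' deposited table. Zfp106 had -0.71 ± 0.18 in the authors' deposited table (adjusted p = 0.0031), the only gene with calls in both tables. The other 8 genes with a called peak had RNA changes between -0.12 and 0.15 in the authors' deposited table, none of them called. Zfp106 is strongly expressed in muscle, and 4 of 4 skeletal muscle markers were negative in the authors' deposited table, 2 of them called, with a median of -1.43. Their part in the Zfp106 value was not tested. Zfp930 and Zfp91 were the remaining negative calls in the authors' deposited table, at -0.46 ± 0.16 and -0.25 ± 0.08.

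**Figure D5:**
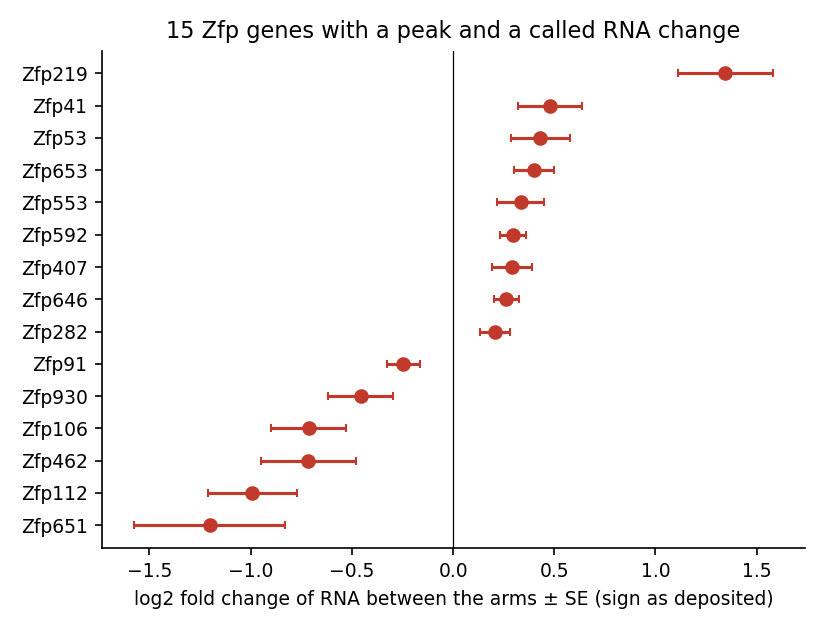
The log2 fold change of RNA between the arms with its SE, from the authors' deposited table, for the 15 Zfp genes that have a peak and an adjusted p under 0.05. There are 9 genes on the positive side, led by Zfp219 at 1.35, and 6 on the negative side, down to Zfp651 at -1.20.

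Members with the highest mean counts besides Zfp106, Zfp91 and Zfp646 included Zfp36l2, with 0.30 ± 0.16 and no call in the authors' deposited table (adjusted p = 0.23). Some members are known from bone and fat, and these were chosen after their values were seen. Zfp467, which favours adipocytes over osteoblasts in marrow stroma, had 1 peak of enrichment 1.48 and -0.04 ± 0.20 in the authors' deposited table. Zfp521 and Zfp423, regulators of osteoblasts and of adipocyte precursors, had no peak, and -0.32 ± 0.23 and -0.66 ± 0.30 with no call in the authors' deposited table.

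The partners of KRAB zinc finger proteins were given by a list of 30 corepressor and heterochromatin genes. Of 29 tested, 3 (10.3%) were called in the authors' deposited table, each with a positive sign, a share near the 12.2% of all tested genes. Of all 29 the authors' deposited table gives 22 as positive, with a median of 0.15. Among all 15396 tested genes 7187 were positive in the authors' deposited table, with a median of -0.02. Trim28, the KRAB corepressor itself, had 0.34 ± 0.05 in the authors' deposited table (adjusted p = 2.5e-10) and no peak. Daxx, a chaperone of histone H3.3, had 0.22 ± 0.06 and Uhrf1, which brings in the maintenance DNA methyltransferase, 0.34 ± 0.11 in the authors' deposited table. Peaks were found in 26 of the 30 genes, 80 in all, with a median enrichment of 1.89. Between the arms, 5 of these 80 peaks were called in the authors' deposited table, against 4.92% of all peaks, and they lay in Trim24, Smarcad1, Chd4, Morc3 and Atrx with positive signs. Of 19 genes of CCCH-directed mRNA decay, 18 were tested and none was called in the authors' deposited table, and 2 had an unadjusted p under 0.05. Of these 18 the authors' deposited table gives 15 as positive, with a median of 0.14. These 2 were the deadenylase scaffold Cnot3 and Rc3h1, at 0.15 ± 0.07 and 0.28 ± 0.14 in the authors' deposited table (adjusted p = 0.15 and 0.18).

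Markers of bone and marrow cells were all present in the RNA table. The 5 osteoblast markers had mean counts of 482 to 99868, the 4 neutrophil markers 11535 to 225725 and the 4 skeletal muscle markers 28710 to 127953. Of the 5 B lineage markers all were called with positive sign in the authors' deposited table, with a median of 1.07. Of the osteoblast markers, Col1a1 and Bglap were called at 1.12 and 1.08 in the authors' deposited table, while Ibsp and Alpl had -0.53 and -0.49 without a call. The osteoclast markers were negative in the authors' deposited table, with 1 of 3 called, Ctsk at -0.72. Among erythroid markers 2 of 3 were called positive, among T cell markers 1 of 3, and among neutrophil markers 0 of 4 in the authors' deposited table. Whether such shifts in cell types bear on the Zfp values was not tested.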

How the data were processed

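Bone RNA of 16 libraries was profiled, 8 input and 8 IP, per the labels with a stranded mRNA kit and unique molecular identifiers. DESeq, HISAT2 and StringTie appear in the submitters' processing notes beside the rat build rn6, with no roles. No source used here names the peak caller or any pooling. Of the Zfp peaks, 446 of 449 (99.3%) lay inside the RefSeq gene of their name on mouse GRCm38.p6, and coordinates are those of the peak table, counted from 1.

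Per the file headers, the authors deposited for each peak a p-value, log10 values of p and FDR, the fold enrichment as a ratio, the number of blocks, and the log2 difference between the arms with log10 p and FDR, held as a score. For each gene the authors deposited a mean normalized count (a signal), a log2 fold change, its SE, a Wald score and p-values before and after adjustment. The adjusted ones match the Benjamini-Hochberg method over the 15396 genes with an adjusted value.

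No test was run, since no value per library was at hand. A count model and the leaving out of libraries were therefore not possible, and the p-values used are the deposited ones. Members were set beside all other peaks by counts, medians and exact binomial intervals, with Python 3.11.15, pandas 2.3.3 and scipy 1.17.1. The summary functions were tested on simulated data. Named were all called members, the 8 highest, 4 lowest, 4 longest peaks and 3 with most blocks, the 5 genes with most peaks (ties kept), up to 8 called genes per sign, the 4 of highest mean count, and up to 4 called genes of each list, else the 2 of smallest p. The members and lists were chosen with earlier results of these data known. Labels do not say whether libraries came from separate animals, so deposited p-values may measure technical spread.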

Additional observations from a re-analysis of the deposited data

How the results depend on the processing

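The 1-block share of Zfp peaks was 86.0 to 87.2% with stricter peaks, better covered genes, 1 value per gene, other zinc finger names added, or the Zfp36 family or Zfp991 left out. The 86.0% was over 543 peaks with other zinc finger names added, against 58.7% of the remaining peaks. Elsewhere peaks under those names count as other peaks, so a high 1-block share is not shown to be particular to Zfp names. Within 4 equal classes of the mean count, an alternative chosen after seeing the data, the Zfp 1-block share was 91.1, 81.6, 82.6 and 80.0%. It lay above that of the other peaks in each. The median enrichment was 1.83 to 1.86 except in these classes, with 1.8, 1.81, 2.14 and 2.13. The share at an enrichment of 2 became 36% with 1 value per gene, 81.7% at a cut of 1.5 and 6.46% at a cut of 3. The 11 arm differences became 3 at p under 0.01, 4 with a log2 difference of at least 0.5 and 0 at an FDR under 0.05 in the authors' deposited table. The 633 arm differences of other peaks became 185, 165 and 3. With other zinc finger names added, 17 of 543 member peaks were called, against 11 of 449 without those names. The other peaks then held 627 calls, and 4.92% of all peaks were called. Among peaks of 1 block, a choice made after seeing the data, 7 of 389 were called (1.8%), against 266 of 7442 others (3.57%). The 15 RNA calls among 202 tested Zfp genes with a peak became 28 at an adjusted p under 0.1 and 6 under 0.01. The 934 calls among 6622 other genes with a peak became 1313 and 467. Among all 364 tested Zfp genes the 22 calls became 41 and 10, and the 1853 among 15032 other genes became 2686 and 872. No paired analysis was possible because the tables hold no value per library, and no replicate could be left out. The lowest class by mean count held 235 of the Zfp peaks and 2 of the 11 calls, and the part of read depth in this was not tested.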

Other observations

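Peaks of a gene often list exactly the same p against input. This held for 149 of 369 Zfp peaks in genes with 2 or more peaks (40.4%), against 3017 of 9028 other such peaks (33.4%). In Zfp62, for example, 4 neighbouring peaks all have 7.4e-08 while their enrichments run from 1.75 to 2.26. Peaks on opposite strands also shared bases in 4 of the 9 overlaps. The Zfp740 peak shared all 199 bases with one of Csad on the other strand, at enrichments of 2.14 and 2.03. The Zfp276 peak shared 86 bases with one of Fanca, and a Zfp397 peak shared 94 with one of Zscan30.

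Zfp992, at a mean count of 30.9, was the 1 gene with a Zfp peak for which the authors' deposited table gives no p, and no fold is given for it here.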
